A study of Mus musculus with 12 samples.

Results

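The transcripts described here belong to 9 genes that are known for their part in the mesenchyme of the heart's valve cushions: the transcription factors Sox9, Twist1, Snai1, Snai2, Msx1 and Msx2, the growth factor receptor Pdgfra, and the matrix proteins Postn and Tnc. They were matched by name in the array's gene annotation. They account for 9 of the 18194 genes that the array named, and for 17 of its 45101 probe sets, a probe set being the group of short probes that reports 1 transcript. Each gene was followed through the probe set with the highest mean over all 12 arrays, and the other sets of the same gene are given beside it.

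The study set out to compare the transcriptomes of left and right ventricles between embryos lacking Nos3, the endothelial nitric oxide synthase gene, and wild-type embryos. All 4 groups were ventricular tissue at embryonic day 14.5, and each held 3 arrays: wild-type left ventricle, wild-type right ventricle, Nos3-/- left ventricle and Nos3-/- right ventricle. The wild-type embryos were of strain CD1, whereas the Nos3-/- embryos were of B6.129P2-Nos3tm1unc/J, so the effects of the allele and of the strain cannot be told apart. Each array read 100 ng of RNA from tissue of pooled embryos, with 15 to 30 embryos behind a sample, and the labels name the pools as triplicates without saying which litters they came from, so p-values measure the spread between these pools. The targeted gene followed its labels: Nos3 lay between 8.30 and 8.39 in wild-type left ventricles against 7.86 to 8.02 in Nos3-/- left ventricles, and between 8.37 and 8.94 against 7.77 to 8.23 in right ventricles. All values are log2 array signals, so a difference of 1 is a doubling. In pooled bulk tissue, fewer cells of a type and less RNA per cell cannot be told apart.

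Valve cushions form where endocardial cells, on signals from the heart muscle beneath them, lose their contacts and move into the swollen matrix as mesenchymal cells, a process called endothelial-to-mesenchymal transition. Snai1, Snai2 and Twist1 are transcription factors that drive that transition, Msx1 and Msx2 are homeodomain factors downstream of bone morphogenetic protein signals, and Sox9 is needed for the cushion cells to multiply and to lay down cartilage-like matrix. Pdgfra binds platelet-derived growth factors on mesenchymal cells, and periostin (Postn) and tenascin-C (Tnc) are secreted into the matrix of remodelling valves. None of the 9 is restricted to cushions: fibroblasts, epicardium-derived cells and neural crest derivatives can also express them, and the labels do not say whether valve tissue was dissected with the ventricles.

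The upstream windows of the 3 genes that differed between genotypes in the left ventricle, Msx2, Pdgfra and Tnc, are shown first, because the transcription factors among the 9 can bind short motifs of the kind searched for in them. Each window holds the 250 bases before the gene's start, 5′ to 3′ on the gene's strand, from RefSeq annotation of GRCm38.p6. The Msx2 window is chr13:53472781-53473030 on the minus strand, the Pdgfra window is chr5:75152001-75152250 on the plus strand, and the Tnc window is chr4:64047016-64047265 on the minus strand. RefSeq gave 2 starts for Tnc and 2 for Postn; the Tnc window printed belongs to the start farther upstream, and the other, chr4:64046937-64047186, overlaps it, has a GC content of 51.2% and held 0 matches. Capitals mark a match to 1 of 3 motifs, which were searched on both strands.
Msx2: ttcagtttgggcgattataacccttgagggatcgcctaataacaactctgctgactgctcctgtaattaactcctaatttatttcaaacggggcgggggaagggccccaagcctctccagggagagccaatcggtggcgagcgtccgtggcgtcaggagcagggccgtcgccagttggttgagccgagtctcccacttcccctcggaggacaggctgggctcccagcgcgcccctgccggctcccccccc
Pdgfra: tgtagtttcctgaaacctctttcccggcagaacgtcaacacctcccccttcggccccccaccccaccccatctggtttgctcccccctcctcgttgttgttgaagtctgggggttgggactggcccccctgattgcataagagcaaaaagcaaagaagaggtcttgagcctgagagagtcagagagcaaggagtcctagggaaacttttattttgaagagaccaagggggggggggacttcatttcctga
Tnc: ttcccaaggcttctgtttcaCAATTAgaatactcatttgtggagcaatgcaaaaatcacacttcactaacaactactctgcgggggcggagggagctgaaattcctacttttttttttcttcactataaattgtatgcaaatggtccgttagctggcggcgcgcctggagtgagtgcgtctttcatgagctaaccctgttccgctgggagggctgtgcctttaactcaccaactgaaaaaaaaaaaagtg
The motif CAGGTG, read as CACCTG on the opposite strand, is the E-box bound by the Snail and Twist families, and 17.2% of all 32851 windows of the same length held it. It was found in the windows of Snai1 and Msx1 and in none of the 3 printed. The homeodomain core TAATTG, with reverse complement CAATTA, occurred in 7.2% of windows, among them 1 of the 2 windows of Postn and 1 of the 2 of Tnc, and the Tnc match began 230 bases before the start on the opposite strand. The Sox core AACAAT, with reverse complement ATTGTT, occurred in 9.4% of windows, among them those of Twist1 and the same window of Postn, where it overlapped the homeodomain core. The GC content was 61.6% for Msx2, 54.4% for Pdgfra and 44.8% for the printed Tnc window, beside a median of 52.4% over all windows. Windows were available for 7 of the 9 genes, with none for Sox9 and Snai2. These matches describe letters in a window and no binding was measured.

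Arrays correlated with each other at 0.97 to 0.997 over all probe sets, and array medians lay between 5.57 and 5.74. Markers of ventricular muscle summed to 16.69 to 16.96 on the 12 arrays, and 7 of 8 markers of body wall muscle and cartilage had means below the median of all values, 5.67. The poly-A control RNAs added before labelling read 8.89 to 8.96 on 4 arrays, namely the 3 wild-type left ventricles and wild-type right ventricle replicate 3, and 7.35 to 8.47 on the other 8. In the left ventricle this split coincides with genotype. Its part in the results was not tested apart from the fits with control terms given beside them.

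In the left ventricle, Tnc, Pdgfra and Msx2 were higher in Nos3-/- than in wild-type embryos, by 0.96, 0.87 and 0.67 (log2). The other 6 genes did not pass the test. In the right ventricle Tnc alone of the 9 passed, at 0.72 higher. The test was limma's moderated test over all 18194 genes, and a gene was called at a Benjamini-Hochberg adjusted p below 0.05. The 3 of 9 called in the left ventricle, all higher, stand beside 30.9% of all genes called there in either direction and 18.6% called higher, so a count of 3 is close to what the whole array showed. The 1 of 9 called in the right ventricle stands beside 8.19% of all genes, 4.61% called higher. The median difference over the 9 was 0.31 in the left ventricle, beside -0.01 over all genes, and 0.09 in the right ventricle, beside -0.04. In the left ventricle the 3 Nos3-/- arrays did not overlap the 3 wild-type arrays for 6 of the 9 genes, where 44.4% of all genes did not overlap; in the right ventricle this held for Tnc, where 29.4% did not. An exact permutation test of 3 arrays against 3 cannot go below 0.1, which is the value each non-overlapping gene reached.

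**Figure D1:**
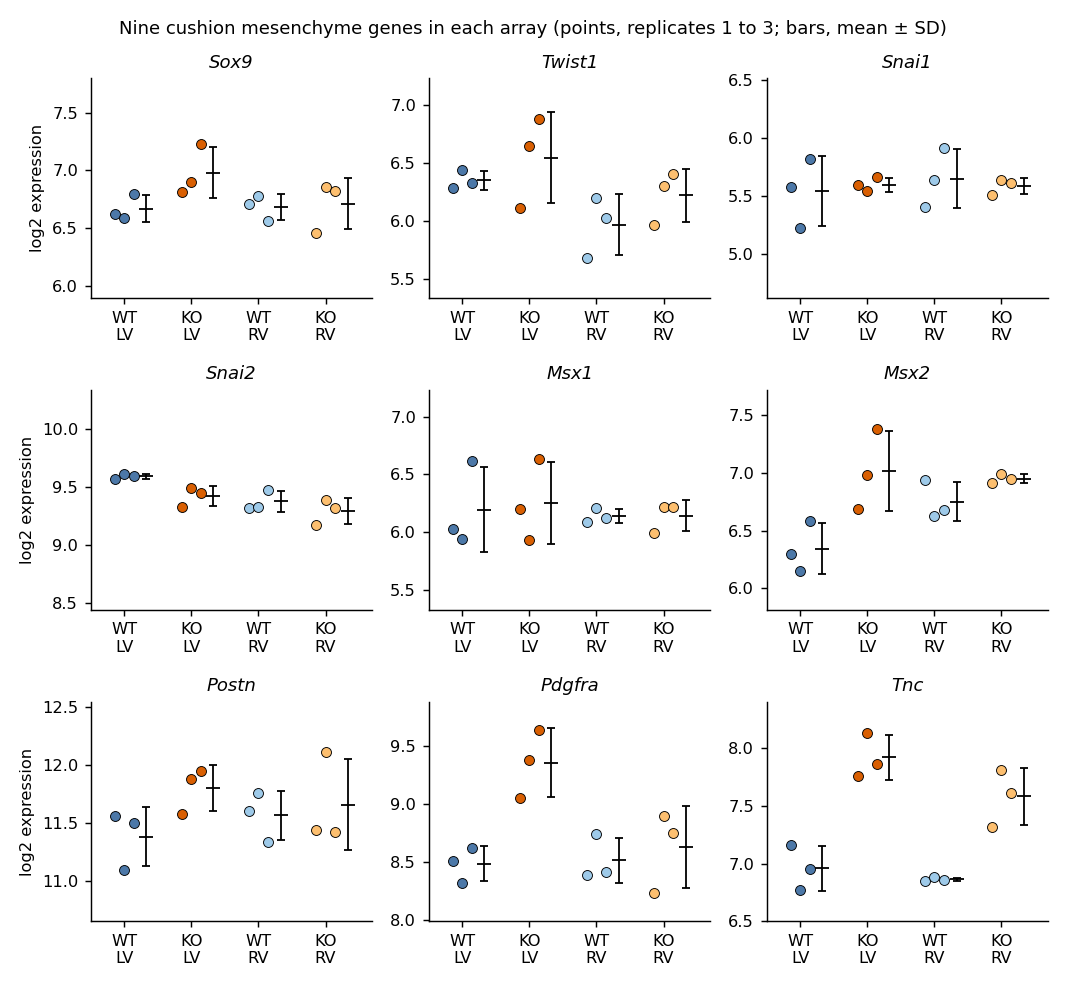
Log2 signal of each of the 9 genes on each of the 12 arrays, with points for arrays and bars for the means of the 4 groups of 3. The Nos3-/- arrays of Tnc, from 7.32 to 8.13, all lie above the wild-type arrays, from 6.77 to 7.16.

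Tnc, the matrix glycoprotein that appears where valve tissue is being remodelled, read 7.16, 6.77 and 6.95 in wild-type left ventricles and 7.76, 8.13 and 7.86 in Nos3-/- left ventricles. In right ventricles it read 6.85, 6.88 and 6.86 in wild type and 7.32, 7.81 and 7.61 in Nos3-/-. All 6 Nos3-/- arrays were above all 6 wild-type arrays. The left ventricular difference was 0.96 (SE 0.13, 95% interval 0.67 to 1.25, limma adjusted p = 0.000266), a 1.94-fold higher signal. The right ventricular difference was 0.72 (SE 0.13, 95% interval 0.43 to 1.01, limma adjusted p = 0.0054), or 1.64-fold. Tnc kept its right ventricular call in 19 of 19 alternatives, at 0.54 to 0.85, including 0.72 (limma adjusted p = 0.0179) without wild-type right ventricle replicate 3, the comparison among arrays of lower control signal. In the left ventricle a term for the 4 arrays of high control signal left the Tnc difference at 0.95 while its error grew to 0.25, and the limma adjusted p was 0.099.

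Pdgfra, the receptor that marks much of the heart's non-muscle mesenchyme, read 8.51, 8.32 and 8.62 in wild-type left ventricles and 9.05, 9.38 and 9.64 in Nos3-/- left ventricles. The groups did not overlap, and Nos3-/- replicate 3 was the highest of the 12 arrays. The difference was 0.87 (SE 0.18, 95% interval 0.49 to 1.25, limma adjusted p = 0.00258), or 1.83-fold. In right ventricles Pdgfra read 8.39, 8.74 and 8.41 in wild type and 8.23, 8.90 and 8.75 in Nos3-/-. Those ranges overlapped, and Nos3-/- replicate 1 was the lowest of all 12 arrays while replicate 2 was the highest of the right ventricles. The right ventricular difference of 0.11 (95% interval -0.27 to 0.49, limma adjusted p = 0.721) did not pass. Under the high-control term the left ventricular difference of Pdgfra was 0.72 (limma adjusted p = 0.374).

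Msx2, a homeodomain factor of cushion and outflow mesenchyme, read 6.30, 6.15 and 6.58 in wild-type left ventricles and 6.69, 6.98 and 7.38 in Nos3-/- left ventricles. The groups did not overlap, but the lowest Nos3-/- array was close to the highest wild-type array. The difference was 0.67 (SE 0.15, 95% interval 0.34 to 1.01, limma adjusted p = 0.00544), or 1.59-fold. In right ventricles it read 6.94, 6.63 and 6.68 in wild type and 6.91, 6.99 and 6.95 in Nos3-/-, with overlap, and the difference of 0.20 (95% interval -0.13 to 0.53) had a limma adjusted p of 0.436. The term for high-control arrays brought the left ventricular difference of Msx2 to 0.57 (limma adjusted p = 0.437).

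**Figure D2:**
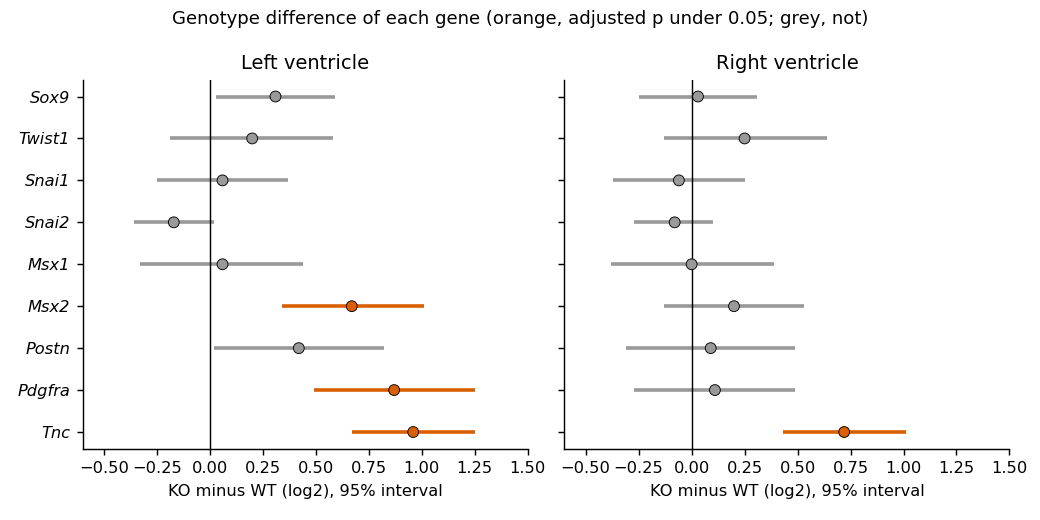
Nos3-/- minus wild-type difference in log2 signal for each of the 9 genes in the left and the right ventricle, with 95% intervals from the fit over all genes. Tnc lies at 0.96 and 0.72, and the intervals of Pdgfra and Msx2 include 0 in the right ventricle but not in the left.

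Sox9, which drives proliferation and matrix genes in cushion cells, read 6.62, 6.59 and 6.80 in wild-type left ventricles and 6.81, 6.90 and 7.23 in Nos3-/- left ventricles. The ranges were separated by the small step from 6.80 to 6.81. The difference of 0.31 (95% interval 0.03 to 0.59) had a limma adjusted p of 0.0855, which became 0.0438 at a difference of 0.40 when each array was centred on its median. In right ventricles the Sox9 difference was 0.03 (limma adjusted p = 0.907).

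Postn, periostin, read 11.56, 11.09 and 11.50 in wild-type left ventricles and 11.58, 11.88 and 11.95 in Nos3-/- left ventricles, again without overlap but with neighbouring edges. Its difference was 0.42 (95% interval 0.02 to 0.82, limma adjusted p = 0.102). In right ventricles Postn read 11.60, 11.76 and 11.34 in wild type and 11.44, 12.11 and 11.42 in Nos3-/-, where replicate 2 stood above all other arrays. That difference was 0.09 (limma adjusted p = 0.793).

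The transition regulators did not pass in either ventricle. Twist1 differed by 0.20 in the left and 0.25 in the right ventricle (limma adjusted p = 0.447 and 0.395), with values from 5.68 to 6.44 in wild type and 5.96 to 6.88 in Nos3-/-. Snai1 differed by 0.06 and -0.06, with 95% intervals of -0.25 to 0.37 and -0.37 to 0.25, and its array values ran from 5.22 to 5.91. Snai2 read 9.57, 9.61 and 9.60 in wild-type left ventricles and 9.33, 9.49 and 9.45 in Nos3-/- left ventricles, the 1 non-overlapping gene among the 9 with the lower values in Nos3-/-. Its difference of -0.17 had a limma adjusted p of 0.157, and its right ventricular difference was -0.08. Msx1 differed by 0.06 in the left ventricle (95% interval -0.33 to 0.44) and by 0.00 in the right (-0.38 to 0.39). The intervals of Snai1 and Msx1 each extend past a difference of the size of Sox9's in the left ventricle, so the values do not show that these regulators were equal between genotypes. The Snai2 set used is of the x_at kind, whose probes can also match other transcripts.

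Probe sets of the same gene did not always move together, and the clearest case was Msx1. Its second set read 5.97, 6.06 and 6.05 in wild-type left ventricles against 5.86, 5.71 and 5.68 in Nos3-/- left ventricles, and 6.20, 6.23 and 6.16 against 5.96, 5.85 and 5.74 in right ventricles. Neither pair of groups overlapped, and Nos3-/- was lower in both ventricles. When every probe set was tested on its own, this set fell by 0.28 in the left ventricle (limma adjusted p = 0.0325) and fell by 0.35 in the right (limma adjusted p = 0.0313), where 9.97% and 2.60% of the 34958 probe sets with 1 gene symbol were called lower. The set was singled out after its values were seen, and its call held in 2 of 6 fits in the left ventricle and 1 of 6 in the right that left out 1 array, at differences of -0.33 to -0.24 and -0.40 to -0.29. With median centring Msx1's second set gave -0.18 (limma adjusted p = 0.161) and -0.31 (0.0667), and with the term for high-control arrays -0.33 (0.416) and -0.37 (0.0542).

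For Pdgfra, the 3 sets gave left ventricular differences of 0.87, 0.33 and 0.13, all above 0, of which the first passed. For Sox9 they gave 0.31, 0.42 and 0.13, and none passed. The second Snai2 set differed by 0.08 in the left ventricle, opposite in sign to the first at -0.17, and neither passed. The second sets of Tnc and Msx2 were dim, with means of 3.54 and 3.44. They gave -0.37 and -0.01 in the left ventricle and 0.36 and 0.07 in the right, and none passed. When the sets of a gene were averaged, the left ventricular difference of Tnc became 0.29 (limma adjusted p = 0.061). Twist1, Snai1 and Postn had 1 set each. Probe positions within the transcripts were not used here.

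**Figure D3:**
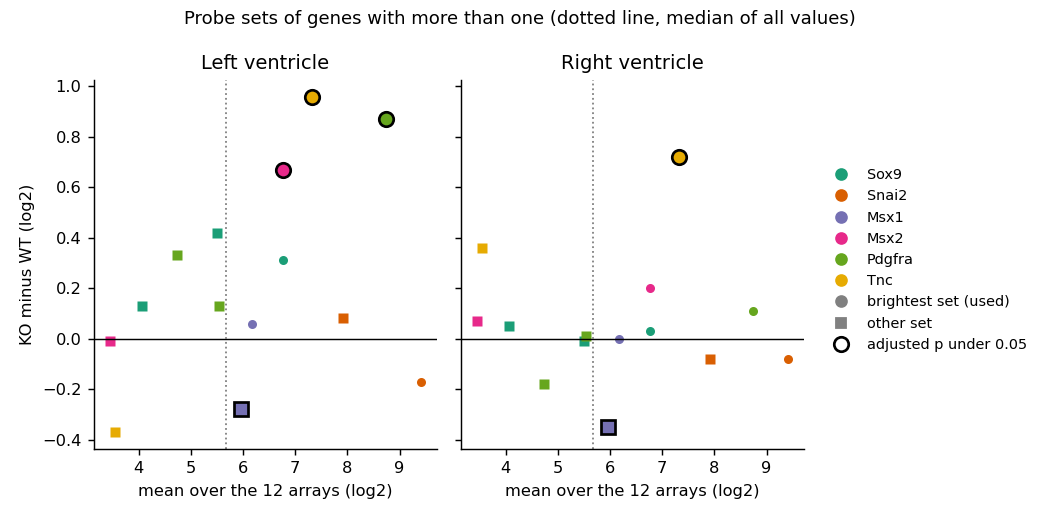
Nos3-/- minus wild-type log2 difference in each ventricle for the probe sets of genes with more than 1 set. The set used for the gene is marked apart from the others, and Twist1, Snai1 and Postn, with 1 set each, are not drawn. The 2 sets of Tnc lie at 0.96 and -0.37 in the left ventricle, and those of Msx1 at 0.06 and -0.28.

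Between the ventricles, none of the 9 genes passed the test in either genotype. In wild type 0 of 9 were called by limma, beside 0.984% of all genes, and 2 of 9 had an unadjusted p under 0.05, as had 17.1% of all genes. Msx2 was 0.41 higher in the right ventricle without overlap (95% interval 0.07 to 0.74, limma adjusted p = 0.207). Twist1 and Snai2 differed by -0.38 and -0.22, also without overlap (limma adjusted p = 0.3 and 0.23), and 15.7% of all genes did not overlap. In Nos3-/- embryos 0 of 9 were called, beside 1.14% of all genes, and 2 of 9 had an unadjusted p under 0.05, as had 10.3% of all genes. All 9 right-minus-left differences were below 0 there, from -0.73 for Pdgfra to -0.01 for Snai1. Their median was -0.15, beside -0.00 over all genes. The 9 differences come from the same arrays, so their signs are not independent, and without Nos3-/- left ventricle replicate 3 only 6 of 9 were below 0.

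Pdgfra had the largest of these ventricular differences, at -0.73 (SE 0.18, 95% interval -1.11 to -0.35, limma adjusted p = 0.0723), with no overlap between the 3 left and 3 right Nos3-/- arrays, where 19.7% of all genes did not overlap. An alternative fit used the replicate number as a block, joining same-numbered left and right pools of both genotypes. It was therefore not a pairing of left with right pools alone. With this block the limma adjusted p of Pdgfra was 0.0324. Over its 19 alternatives the difference ran from -0.88 to -0.49 and passed in 5. In wild type the same difference for Pdgfra was 0.03. The interaction of genotype and ventricle, which tests whether the genotype difference itself differed between ventricles, called 0 of 9 genes, beside 0.0220% of all genes, with 2 of 9 at an unadjusted p under 0.05, where 13.9% of all genes were. For Pdgfra the interaction was -0.76 (95% interval -1.30 to -0.22, limma adjusted p = 0.314), and for Msx2 it was -0.47 (limma adjusted p = 0.356). Weighting arrays by their quality gave -0.96 for Pdgfra (limma adjusted p = 0.0437), the 1 of its 24 alternatives that passed. For Tnc the interaction was -0.24 (95% interval -0.65 to 0.17). The call of Pdgfra and Msx2 in the left ventricle and not in the right is therefore not shown to be a difference between the ventricles.

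**Figure D4:**
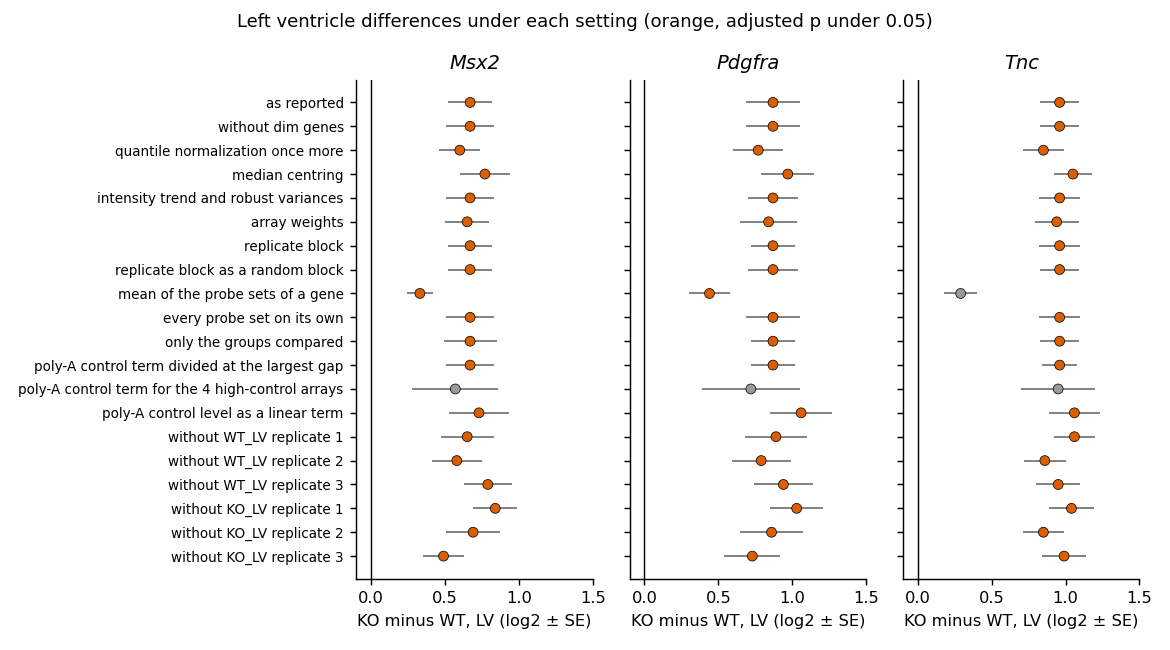
Nos3-/- minus wild-type log2 differences of Msx2, Pdgfra and Tnc in the left ventricle under the main fit and each alternative setting. Bars are standard errors, and passed and not passed values are marked apart. The lowest value of Tnc, 0.29, is the mean of its 2 probe sets.

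The spread between pools of the same group differed widely among the 9 genes. Their median SD was 0.20 in wild-type left, 0.17 in wild-type right, 0.22 in Nos3-/- left and 0.22 in Nos3-/- right ventricles, beside 0.12, 0.13, 0.10 and 0.10 over all genes. In wild-type left, wild-type right, Nos3-/- left and Nos3-/- right ventricles 6, 5, 7 and 7 of the 9 lay above that median of all genes. Nos3-/- left ventricle replicate 3 was the highest of the 12 arrays for Sox9, Twist1, Msx1, Msx2 and Pdgfra, or 5 of 9, whereas 15.9% of all genes were highest there. Within its own group it was the highest for 7 of the 9, beside 49.5% of all genes. Within the Nos3-/- right ventricles, replicate 1 was the lowest of its group for 8 of the 9, beside 30.8% of all genes, and replicate 2 the highest for 8 of the 9, beside 35.3%. The spread was widest for Twist1 in Nos3-/- left ventricles (SD 0.40) and for Postn in Nos3-/- right ventricles (SD 0.39), and narrowest for Tnc in wild-type right and Snai2 in wild-type left ventricles (SD 0.02 each, n = 3).

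The genes whose 12 array values followed a member most closely, by the root mean square distance after centring, were Chsy1 and Zswim1 for Msx2 (0.11 each), Antxr1 and Csf2rb for Pdgfra (0.16 each), and Pcm1 and Tbx20 for Tnc (0.14 and 0.16). The members' own distances from a flat line were 0.32, 0.42 and 0.46. Tbx20 is itself a cushion regulator, and its means were 11.53 in both wild-type groups, 12.48 in Nos3-/- left and 12.03 in Nos3-/- right ventricles.

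Of 18 inducers and early regulators of the cushions, 11 rose and 2 fell in Nos3-/- left ventricles (median difference 0.50). In right ventricles 5 rose and 1 fell (median difference 0.24). Over all genes, 18.6% were called higher in the left ventricle and 4.61% in the right. Called in either direction were 30.9% and 8.19%. These shares stand beside the counts of every list below. Bmp2, the muscle-derived signal that starts the transition, rose by 1.54 in the left ventricle (8.09 ± 0.06 against 6.55 ± 0.14, SD, n = 3 arrays, limma adjusted p = 2.61e-06). It rose by 0.68 in the right (limma adjusted p = 0.00369), and it kept its call in all 19 alternatives in each ventricle, the lowest left ventricular value being 1.15 with the term for high-control arrays. Nfatc1, a valve endocardial factor, rose by 1.24 and 0.63 in the left and right ventricles. Tbx20 rose by 0.95 and 0.49. Bmp4, a second bone morphogenetic protein, fell by 0.48 in the left ventricle and fell by 0.44 in the right, and Hey1, a Notch target, fell by 0.40 in the left. With the term for high-control arrays 1 of the 18 rose and 0 fell in the left ventricle, and without wild-type right ventricle replicate 3, 1 rose and 0 fell in the right.

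Of 21 receptors and effectors of the transition, 18 rose and 1 fell in the left ventricle (median 0.53). In the right ventricle 4 rose and 1 fell (median 0.26). The shares of all genes called higher were 18.6% and 4.61%. Zeb2, a transcription factor of the same functional class as the Snail factors, rose by 1.41 in the left and 0.83 in the right ventricle (limma adjusted p = 0.000778 and 0.0417). Bmpr2 and Erbb3, receptors for bone morphogenetic proteins and neuregulin, rose by 0.96 and 0.89 in the left ventricle. Egfr, the epidermal growth factor receptor, fell by 0.28 in the left ventricle and fell by 0.39 in the right. With the term for high-control arrays in the left ventricle, and without wild-type right ventricle replicate 3 in the right, 0 of the 21 passed, and Zeb2 stood at 0.55 in each (limma adjusted p = 0.527 and 0.144).

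Of 21 genes of cushion and valve matrix, 9 rose and 1 fell in the left ventricle (median 0.42). In the right ventricle 3 rose and 0 fell (median 0.01). Of all genes, 18.6% and 4.61% were called higher. The 3 that rose in the right ventricle were Hapln1, Vcan and Tgfbi. Hapln1 and Vcan encode the link protein and the proteoglycan versican that hold hyaluronan in the cushions. Hapln1 rose by 2.03 in the left and 1.56 in the right ventricle, and Vcan by 1.77 and 1.26. Tgfbi, a secreted relative of periostin, rose by 1.40 and 0.79 (limma adjusted p = 6.6e-06 and 0.00141). Lum, the small proteoglycan lumican, fell by 0.52 in the left ventricle (limma adjusted p = 0.0476), a call that held in 9 of 19 alternatives, with -0.30 without Nos3-/- replicate 1. With the term for high-control arrays, Tgfbi at 1.07 was the 1 of 21 that rose in the left ventricle, with 0 falling; without wild-type right ventricle replicate 3, 3 rose and 0 fell in the right.

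Of 15 measured genes of the cartilage and tendon programme of valves, 3 rose and 3 fell in the left ventricle (median 0.11). In the right ventricle 2 rose and 1 fell (median -0.08). These counts stand beside 18.6% and 4.61% of all genes called higher. The collagen genes Col11a1 and Col9a1 and the matrix protein gene Comp rose by 1.55, 1.40 and 1.10 in the left ventricle, and Col9a1 stood at 0.92 without Nos3-/- replicate 3. Col11a1 rose by 1.25 and Col2a1, the main cartilage collagen, by 0.52 in the right. Tnmd, the tendon glycoprotein tenomodulin, passed as lower in both ventricles, at -0.40 and -0.49, but its group means of 3.38 to 4.07 lie below the median of all values and the calls held in 9 and 7 of 18 alternatives. Under the term for high-control arrays 0 of 15 passed in the left ventricle, and without wild-type right ventricle replicate 3, 1 rose and 0 fell in the right.

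A list of 20 genes held ligands, integrins, processing enzymes and partners of the proteins of the 9 genes or of related proteins. In the left ventricle 12 rose and 1 fell (median 0.43), and in the right 6 rose and 2 fell (median 0.20). Of all genes, 18.6% and 4.61% were called higher. Among the platelet-derived growth factors, Pdgfd rose by 1.19 in the left and 1.25 in the right ventricle (limma adjusted p = 0.00017 and 0.000267). Whether its protein acts on the receptor encoded by Pdgfra was not tested. Pdgfb and Pdgfc rose by 0.76 and 0.53 in the left ventricle and differed by 0.07 and 0.27 in the right without passing. Pdgfa, a classical ligand of the receptor encoded by Pdgfra, differed by 0.09 and -0.04 without passing. Pdgfrb, the sister receptor, rose by 0.47 in the left ventricle (limma adjusted p = 0.0434) and differed by -0.08 in the right; with the term for high-control arrays its left ventricular difference was -0.07.

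The integrin subunits that bind tenascin-C and periostin went both ways. Itga9, whose protein binds tenascin-C, read 7.12 ± 0.23 against 8.23 ± 0.26 in left and 6.98 ± 0.18 against 8.44 ± 0.29 in right ventricles (Nos3-/- against wild type, SD, n = 3 arrays). It fell by 1.12 in the left ventricle and fell by 1.46 in the right (limma adjusted p = 0.000388 and 0.000118), and with the term for high-control arrays the left ventricular value was -1.55 (limma adjusted p = 0.0161). Itga9 lost its left ventricular call when its probe sets were averaged, at -0.04 (limma adjusted p = 0.795). Itga8, another subunit with matrix ligands, fell by 0.60 in the right ventricle (limma adjusted p = 0.0072) and stood at -0.24 in the left (limma adjusted p = 0.143). Itgav and Itgb3, which pair into a receptor for periostin and tenascin-C, rose by 1.19 and 0.66 in the left ventricle and by 0.75 and 0.50 in the right. With the term for high-control arrays 0 of the 20 rose and 1 fell in the left ventricle. Without wild-type right ventricle replicate 3, 3 rose and 2 fell in the right.

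Several of these single-gene values depended on the probe set taken. Averaging the sets of a gene ended the left ventricular calls of Zeb2 (0.22, limma adjusted p = 0.237), Pdgfb (0.32), Pdgfrb (0.24) and Egfr (0.02). It kept those of Vcan, Nfatc1, Itgav, Itgb3, Pdgfd, Bmpr2, Erbb3 and Col9a1 at lower values of 0.70, 0.71, 0.38, 0.33, 0.64, 0.60, 0.38 and 0.65. In the right ventricle it ended the calls of Nfatc1 (0.26), Tbx20 (0.10), Zeb2 (0.24), Egfr (-0.12) and Itgav (0.09), and it kept those of Hapln1, Vcan, Pdgfd, Itgb3 and Itga9 at 0.97, 0.47, 0.66, 0.32 and -0.44.

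Other calls rested on single arrays. In the right ventricle, leaving out wild-type replicate 3 ended the calls of Nfatc1 (0.40), Tbx20 (0.38), Bmp4 (-0.36), Zeb2 (0.55), Egfr (-0.38), Col2a1 (0.43), Itgav (0.50) and Tnmd (-0.49). Leaving out Nos3-/- replicate 1 ended those of Nfatc1, Bmp4, Zeb2, Col2a1, Tnmd, Itgav and Itgb3, leaving out replicate 2 those of Nfatc1, Tbx20, Bmp4, Zeb2, Egfr, Col2a1 and Itgav, and leaving out replicate 3 those of Nfatc1, Tbx20, Bmp4, Zeb2, Egfr and Tnmd. Bmp4, Egfr and Tnmd also lost their calls without wild-type replicate 2, and Tnmd without replicate 1. Among left ventricular calls, Lum lost its own without wild-type replicate 1, 2 or 3 or Nos3-/- replicate 1, and Egfr without wild-type replicate 2 or 3 or Nos3-/- replicate 2 or 3. Pdgfrb lost it without wild-type replicate 1 or 2 or Nos3-/- replicate 2 or 3, and Tnmd without wild-type replicate 1 or 2 or Nos3-/- replicate 1 or 3. Bmp2 and Tgfbi held in 19 of 19 alternatives in each ventricle, and Hapln1, Vcan, Col11a1, Pdgfd, Itga8 and Itga9 did so in the right.

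Markers of other cell types went different ways between genotypes. Counts of every marker list stand beside 18.6% of all genes called higher in the left ventricle and 4.61% in the right. Called in either direction were 30.9% and 8.19%. Those of endocardium and endothelium summed, as log2 of the summed signal, to 12.26 to 12.30 in wild-type and 12.90 to 13.08 in Nos3-/- left ventricles, and 7 of 9 rose. In right ventricles the sums were 12.26 to 12.81 and 12.84 to 13.00, and 2 of 9 rose. In the left ventricle 0 of 9 passed with the term for high-control arrays and the median difference went from 0.72 to 0.27; without wild-type right ventricle replicate 3, 0 of 9 passed in the right. Smooth muscle and outflow tract markers summed to 13.81 to 14.08 against 14.36 to 14.43 in left ventricles, with 5 of 8 higher, and to 14.14 to 14.31 against 14.54 to 14.72 in right ventricles, with 3 of 8 higher. In the same fits 1 and 2 of these 8 were higher. Neural crest and nerve markers summed to 9.73 to 9.87 against 10.87 to 11.07 in left and 9.95 to 10.41 against 10.81 to 10.98 in right ventricles. Of 7 measured, 2 rose in the left, Ednrb by 1.52 and Elavl4 by 0.38, and 1 in the right, Ednrb by 0.86. In each ventricle 3 of the 7 differences were above 0, with medians of -0.05 and -0.16. The markers Foxd3, Th, Tubb3 and Prph, 4 of the 7, had means below the median of all values.

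Epicardial markers summed to 12.03 to 12.42 against 12.15 to 12.43 in left ventricles, where 3 of 11 rose and 1 fell, and to 11.67 to 12.20 against 11.90 to 12.16 in right ventricles, where 2 rose and 1 fell. Of the 11 epicardial differences 7 in the left and 9 in the right ventricle were above 0, with medians of 0.16 and 0.24. The epicardial marker that went the other way and fell in both was Tcf21, a factor of the epicardium and of cardiac fibroblast precursors. Tcf21 fell by 1.12 and fell by 1.09 in the left and right ventricles (limma adjusted p = 3.54e-05 and 7.23e-05). Tcf21 stood at -0.83 in the left ventricle with the term for high-control arrays (limma adjusted p = 0.0635), and averaged over its probe sets at -0.48 (0.00988) in the left and -0.34 (0.0927) in the right. Atrial markers summed to 14.87 to 14.90 against 15.03 to 15.16 in left and 15.09 to 15.22 against 15.36 to 15.39 in right ventricles, with 5 of 8 and 2 of 8 higher. Liver and blood markers summed to 11.14 to 12.42 against 9.85 to 11.21 in left ventricles, with 3 of 7 lower, and to 11.04 to 13.31 against 10.40 to 11.62 in right ventricles, with 1 of 7 lower. Of the 8 ventricular muscle markers 4 rose in the left ventricle and 1 in the right, and of the 8 body wall markers 1 fell in the left and 1 rose in the right. The body wall marker that rose was Col2a1. Col2a1, Acan and Matn1 are on the valve cartilage list as well, so its rise is counted in both lists. With the term for high-control arrays 0 of the atrial, ventricular muscle, liver and blood, and body wall markers passed in the left ventricle. In that fit 1 of 11 epicardial markers was higher and 0 lower, with 10 of 11 differences above 0 and a median of 0.75. Without wild-type right ventricle replicate 3, 1 of 8 atrial markers was higher, 1 of 7 liver and blood markers lower and 0 of the ventricular muscle and body wall markers passed in the right. Of the 11 epicardial markers 2 were then higher and 1 lower, with a median of 0.50. The part of these cell types in the differences of Tnc, Pdgfra and Msx2 was not tested.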

How the data were processed

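The deposited values were log2 signals on an Affymetrix array, summarised per probe set by the authors with RMA, which corrects background, normalizes between arrays and combines probes, per the submitters' processing notes. The version of RMA was not given in the sources used here, nor was a genome build. Groups came from the sample titles, and 0 columns of the table were left unused. Of the probe sets, 34958 had 1 gene symbol, 932 had several and 9211 had none; 34754 matched RefSeq genes of GRCm38.p6, with 0 symbols changed. For the 9012 genes with several sets, the set with the highest mean over all arrays was kept, and no low-signal filter was used.

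A model with 4 group means was fitted to all 12 arrays with limma 3.58.1 in R 4.3.3 (lmFit, eBayes), and p-values were adjusted over all 18194 genes by Benjamini-Hochberg at 0.05. Exact permutation tests ran in the same version of R, and figures used matplotlib 3.10.9 under Python 3.11.15. The fit was tested on simulated data. The number of arrays limits the precision. The 9 members and the gene and marker lists were chosen with earlier results of these data known. Genes named from a pathway list were up to 3 per list and ventricle with the largest absolute difference among those called, plus the called genes that fell, the platelet-derived growth factors and the integrins, which were picked after their values were seen. The 2 genes most like a member were sought for each member called in any comparison, with predicted genes and clone names passed over.

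Replicate numbers were checked for pairing through the correlation of same-numbered arrays' deviations from their group means. It was 0.21, 0.29 and 0.26 between Nos3-/- left and right ventricles and 0.11, 0.26 and 0.31 between wild-type and Nos3-/- right ventricles. It was 0.23, -0.01 and 0.15 between wild-type ventricles and 0.01, 0.14 and 0.42 between left ventricles of both genotypes. Every pair exceeded 0.1 in the first 2 of these comparisons and not in the last 2. The reported model had no block, and the block was an alternative for all comparisons, given beside a result only in the first 2. Alternatives covered normalization, a low-signal filter, probe set choice, variance models, array weights, a replicate block, poly-A control terms and leaving out each array. The terms for the 4 high-control arrays and for the linear control level were chosen after seeing the data.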

Additional observations from a re-analysis of the deposited data

How the results depend on the processing

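Over 895 alternative values of the 9 genes across the 5 comparisons, 824 stayed on their side of the threshold with no sign change counted. Another 60 changed sign while uncalled in both fits, to values of at most 0.25 in size, 4 lost a call, 7 gained one and 0 reversed. A value of 0.00 after rounding was not counted as a sign change. Msx1 in the right ventricle, at 0.00 in the main fit and -0.17 to 0.10 in the alternatives, therefore added none to the 60. All 4 losses were in the left ventricle: Tnc with averaged probe sets, and Msx2, Pdgfra and Tnc with the term for the 4 high-control arrays, whose cause was not tested. In that comparison wild-type right ventricle replicate 3 is the one array that separates the term from genotype. Leaving out single arrays kept all 3 left ventricular calls, at 0.49 to 0.84 for Msx2, 0.73 to 1.03 for Pdgfra and 0.85 to 1.06 for Tnc.

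Counts over all genes moved more. In the left ventricle 5617 genes were called, 8938 probe sets when each was tested on its own, 197 genes with the high-control term and 2565 with the linear control level. In the right ventricle the 1490 calls became 2858 with array weights, 928 with the compared groups fitted alone and 762 with the control term divided at the largest gap. They became 967 with the high-control term and 804 with the linear level. Without single arrays they became 762 to 1813, with 967 without wild-type replicate 3 and 762 without Nos3-/- replicate 1. In the right ventricle the high-control term and leaving out wild-type replicate 3 are in effect the same fit. Bmp2, for example, stood at 0.56 (limma adjusted p = 0.0114) in both. The tallies of right ventricular alternatives count both, so these are not separate checks.

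For wild type, the 179 genes that differed between ventricles became 2212 with array weights, 270 with a random replicate block, 41 with the compared groups alone, 34 with the high-control term, 72 with the linear level, and 62 to 1734 without single arrays, the highest without wild-type right ventricle replicate 3. For the knockout, the 208 genes became 684 with array weights, 314 with the compared groups alone, 113 with the largest-gap term, 321 with the high-control term, and 104 to 134 without single arrays.

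The 4 genes called for interaction became 2 with a second quantile normalization, 2 with averaged probe sets, 2 with every probe set, 2 with the largest-gap term, 2 with the replicate block, 8 with a random block, 1 with the high-control term, 1364 with array weights, and 2 to 1309 without single arrays, the highest without wild-type right ventricle replicate 3. The replicate block changed the call of Pdgfra between Nos3-/- ventricles, at an unchanged difference of -0.73, and of no other member.

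Among the other named genes, 3 left ventricular values that had passed changed sign, as did 6 genotype differences that had not passed. Averaging probe sets gave -0.17 for Zeb1, called at 0.48, and 0.02 for Egfr, and the high-control term gave -0.07 for Pdgfrb; the cause was not tested. Dim probe sets, such as the second sets of Tnc and Msx2, limit what can be read from a gene's lower-signal sets.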
